A study of Homo sapiens with 12 samples.

Results

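The mitochondrial ribosome is the machine that translates the few proteins encoded by mitochondrial DNA, all of them subunits of the respiratory chain and ATP synthase. Its ribosomal RNAs come from mitochondrial DNA, but its proteins are encoded in the nucleus, made in the cytoplasm and imported. Some of these proteins have a counterpart in bacterial ribosomes and others are found only in mitochondria, and the genes carry symbols that begin with MRPL (large subunit) or MRPS (small subunit). Here 74 such genes were examined in A673 Ewing sarcoma cells out of 18404 genes on the arrays. Members were all genes whose annotated symbol is MRPL or MRPS followed by a number, each read from the brightest probe set that carries that symbol alone. They comprise 73 coding genes and the pseudogene MRPS31P5, which neither rose nor fell in any comparison on the scale as deposited. Of 78 subunits listed, 5 were not used: MRPL51, MRPS6, MRPS24 and MRPS28 share their probe sets with other symbols, and MRPS36 was not used here.

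A673 is an established Ewing sarcoma line with an EWS-FLI1 fusion, in which EWSR1 is joined to FLI1, a transcription factor of the ETS family. The study asked whether actinomycin D, an antibiotic that binds DNA and blocks transcription, reverses the expression program of this fusion as depletion of the fusion does. RNA was measured on 12 arrays, 2 in each of 6 groups. Cells were infected with lentivirus carrying FLI1 shRNA, or lacZ shRNA against a bacterial gene as control, labelled 48 h, and each target had a single hairpin. The protocol in the labels describes 24 h with virus and then 48 h of puromycin. Other cells received 5 nM or 50 nM actinomycin D for 24 h, DMSO vehicle for 24 h, or nothing at time 0. The methods speak of duplicate treatments for DMSO and 5 nM, and for the other groups the sources do not say whether arrays came from separate cultures. There p-values cover only the differences between these particular arrays, possibly technical ones.

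All values are log2 signals, and a difference of 1 is a 2-fold change. A gene is said to rise or fall where limma's Benjamini-Hochberg adjusted p, over all 18404 genes, lay under 0.05. Errors are limma's standard errors (SE) of the difference, n = 2 arrays in each group. Limma takes the spread from all 12 arrays and draws it toward that of other genes. These errors are therefore not the spread of the arrays compared. The second threshold, taken from the study, was a fold change over 2 with an adjusted p under 0.01. The signals were normalized to equal distributions, so levels are relative to other genes on the same array, and an even drop of all transcripts cannot be detected.

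The targeted gene was lower in the cells labelled as knocked down. FLI1 had signals of 7.30 and 7.08 in FLI1 shRNA cells, against 8.63 and 8.45 in lacZ shRNA cells, a fall of 1.35 log2 units (adjusted p = 5e-06). The 7 measured Ewing sarcoma markers stood above the 60th percentile of all genes, while epithelial, blood and endothelial markers stood between 2.47 and 34.0 apart from CLDN5 at 49.6. Of these dim markers, 2 of 4 blood, 2 of 5 endothelial and 0 of 5 epithelial genes rose at 5 nM, against 30.3% of all genes. At 50 nM 3 of 4 blood, 3 of 5 endothelial and 0 of 5 epithelial genes rose, against 25.8% of all genes. Their part in the results below was not tested.

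Mitochondrial ribosomal protein genes were expressed well above the typical gene. Their median signal was 9.68, against 7.45 for all genes, and 68 of 74 lay above that all-gene median. The brightest was MRPS15 at 11.92, followed by MRPS21 and MRPS11, all small-subunit proteins with bacterial counterparts. The dimmest were MRPS18C at 6.12, MRPL13 at 6.64 and MRPL54 at 6.66. Those 3 lie below the 40th percentile of all genes (6.82), where arrays resolve changes least. Signals of different genes come from different probes, so this order is a description only. Arrays of a group differed by a median of 0.052 to 0.107 per member, and MRPS18C had the widest gap, 0.587 between the 5 nM arrays. MRPS21 and MRPS15 spanned only 0.205 and 0.218 log2 units over all 12 arrays, whereas MRPS23 spanned 2.12.

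**Figure D1:**
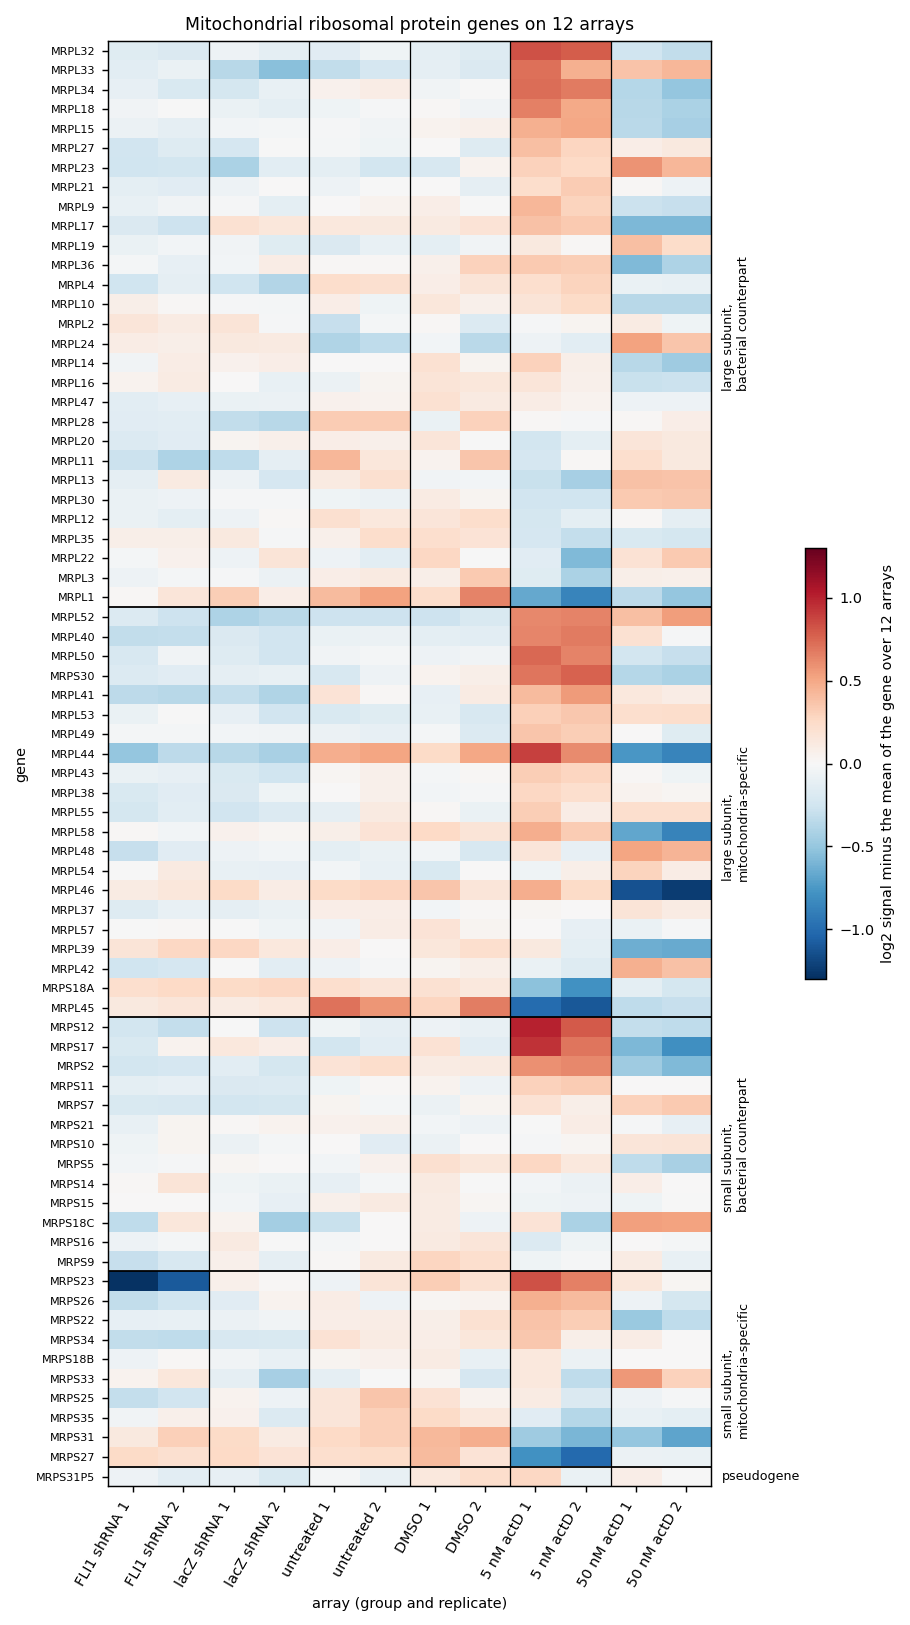
Log2 signal of 74 mitochondrial ribosomal protein genes (rows) on 12 arrays (columns), as the difference from each gene's mean, with red above and blue below the mean. Genes are grouped by subunit and by bacterial counterpart and sorted by the change at 5 nM. The 5 nM columns hold the strongest red, the 50 nM columns hold blue in many of the same rows, and MRPS23 stands out in FLI1 shRNA cells.

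Promoters are shown here because the fusion is an ETS factor and because ETS, NRF1 and YY1 motifs are well known in promoters of nuclear genes for mitochondrial proteins. GABP, an ETS factor, and NRF1 are regulators of that gene class, and YY1 binds a motif that often spans the start codon. RefSeq (GRCh38.p14) gave a promoter, 250 bases before to 50 after the first listed transcription start, for 66 of 73 coding members and for 15843 coding genes on the arrays. Motifs were searched on both strands. CCGGAAG (ETS) was found in 28 of 66 members, or 42.4%, against 14.2% of all coding promoters. AAGATGGC (YY1) was found in 18 members (27.3% against 3.91%), and the NRF1 motif (GCGCA, any base, GCGC) in 8 (12.1% against 8.58%). At least one of these was present in 43 members, or 65.2%, against 23.6% of coding promoters. GGAAGGAA, a pair of GGAA units of the kind the fusion binds in repeats, was in 3 members (4.55% against 3.58%). The 100 bases just before the start are printed for the 3 genes that changed after FLI1 shRNA (MRPS23, MRPL17 and MRPL33) and for 4 genes that changed with actinomycin D. Those 4 all hold CCGGAAG. Genes without it that changed more at 5 nM, such as MRPL32 and MRPL1, are not printed, so the printed set does not represent the family. Capitals mark CCGGAAG, its reverse complement CTTCCGG or the NRF1 letters, and coordinates are those of the printed bases.
MRPS23, chr17:57850045-57850144, minus strand: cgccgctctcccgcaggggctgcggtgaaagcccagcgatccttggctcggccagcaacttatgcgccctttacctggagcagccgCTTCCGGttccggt
MRPL17, chr11:6683341-6683440, minus strand: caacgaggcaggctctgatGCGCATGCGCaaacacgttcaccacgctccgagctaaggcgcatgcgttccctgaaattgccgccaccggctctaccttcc
MRPL33, chr2:27771619-27771718, plus strand: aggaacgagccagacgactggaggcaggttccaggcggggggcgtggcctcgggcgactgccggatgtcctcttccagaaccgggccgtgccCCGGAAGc
MRPL27, chr17:50373185-50373284, minus strand: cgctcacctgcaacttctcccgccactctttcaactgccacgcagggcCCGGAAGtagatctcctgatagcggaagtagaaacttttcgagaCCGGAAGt
MRPL40, chr22:19432445-19432544, plus strand: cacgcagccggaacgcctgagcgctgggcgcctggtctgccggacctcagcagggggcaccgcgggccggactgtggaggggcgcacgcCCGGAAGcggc
MRPL3, chr3:131502972-131503071, minus strand: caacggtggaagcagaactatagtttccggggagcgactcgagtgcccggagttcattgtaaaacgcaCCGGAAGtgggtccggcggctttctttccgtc
MRPS31, chr13:40771191-40771290, minus strand: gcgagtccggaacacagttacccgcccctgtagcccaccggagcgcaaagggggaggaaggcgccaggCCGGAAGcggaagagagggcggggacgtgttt

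In these windows the ETS letters lie close to the start: their first letter is 8 bases before it in MRPL33, 11 in MRPL40, 14 in MRPS23, 32 in MRPL3 and MRPS31, and 52 and 8 in MRPL27, which holds the motif in 2 places and rose by 0.42 at 5 nM actinomycin D. With arrays centred on cytoplasmic ribosomal protein genes, the MRPL27 change at 5 nM was 0.06 and did not pass (adjusted p = 0.59). A match is a stretch of letters and says nothing of which factor binds there. The YY1 letters are shown in 24 bases of 5 of the 18 members that hold them. These 5 are named below for their response to actinomycin D, and the motif is in capitals.
MRPS27, chr5:72320209-72320232, minus strand: tacgctccAAGATGGCtgcctcca
MRPL45, chr17:38297173-38297196, plus strand: gcgggaacAAGATGGCagccccca
MRPL46, chr15:88467365-88467388, minus strand: gagaacgaAAGATGGCggcgcccg
MRPS30, chr5:44808952-44808975, plus strand: cgcgggcaAAGATGGCggcggcca
MRPL50, chr9:101398580-101398603, minus strand: tctcatcgAAGATGGCggcgcgat
The motif begins in these 5 windows between 8 and 23 bases after the first transcribed base.

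After FLI1 shRNA, 3 mitochondrial ribosomal protein genes passed the test. MRPL33 rose and MRPS23 and MRPL17 fell, which is 1.37% of the 73 coding members higher and 2.74% lower, against 14.6% and 9.28% of all genes. The median change was −0.02 for the members and −0.01 for all genes. The FLI1 shRNA arrays did not overlap the lacZ shRNA arrays for 39 coding members, against 63.1% of all genes. Without adjustment, 9 of 74 had a p under 0.05. MRPS33 had 7.95 and 8.04 in FLI1 shRNA cells, against 7.78 and 7.46 in lacZ shRNA cells, a difference of 0.37 that did not pass (adjusted p = 0.13).

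MRPS23, a small-subunit protein without a bacterial counterpart, gave by far the largest change. Its signals were 7.18 and 7.37 in FLI1 shRNA cells, against 8.53 and 8.48 in lacZ shRNA cells. Both FLI1 shRNA arrays were lower than the other 10 arrays by more than 1 log2 unit. The change was −1.23 ± 0.11 (adjusted p = 1.9e-05), or 42.7% of the lacZ shRNA level, and ranked 48th from the lowest among 18404 genes. MRPS23 was the only member past the study's thresholds, which 0.598% of all genes passed downward and 1.21% upward. The study's own list of genes lowered after EWS-FLI1 depletion does not include MRPS23. The lacZ shRNA arrays themselves lay at the untreated level (−0.01).

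MRPL17, a large-subunit protein with a bacterial counterpart near the peptide exit, had signals of 10.54 and 10.45 in FLI1 shRNA cells, against 10.92 and 10.87 in lacZ shRNA cells, a change of −0.40 (adjusted p = 0.0014). MRPL33, a small protein of the large subunit with a bacterial counterpart, had 7.77 and 7.82 in FLI1 shRNA cells, against 7.54 and 7.36 in lacZ shRNA cells. Its rise of 0.34 ± 0.10 (adjusted p = 0.027) did not pass when FLI1 shRNA array 1, FLI1 shRNA array 2 or lacZ shRNA array 2 was left out (adjusted p = 0.09, 0.13 and 0.2). Members with CCGGAAG in the promoter had a median change of −0.04 (1 of 28 rose, 1 fell), and those without it −0.02 (1 of 38 fell).

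**Figure D2:**
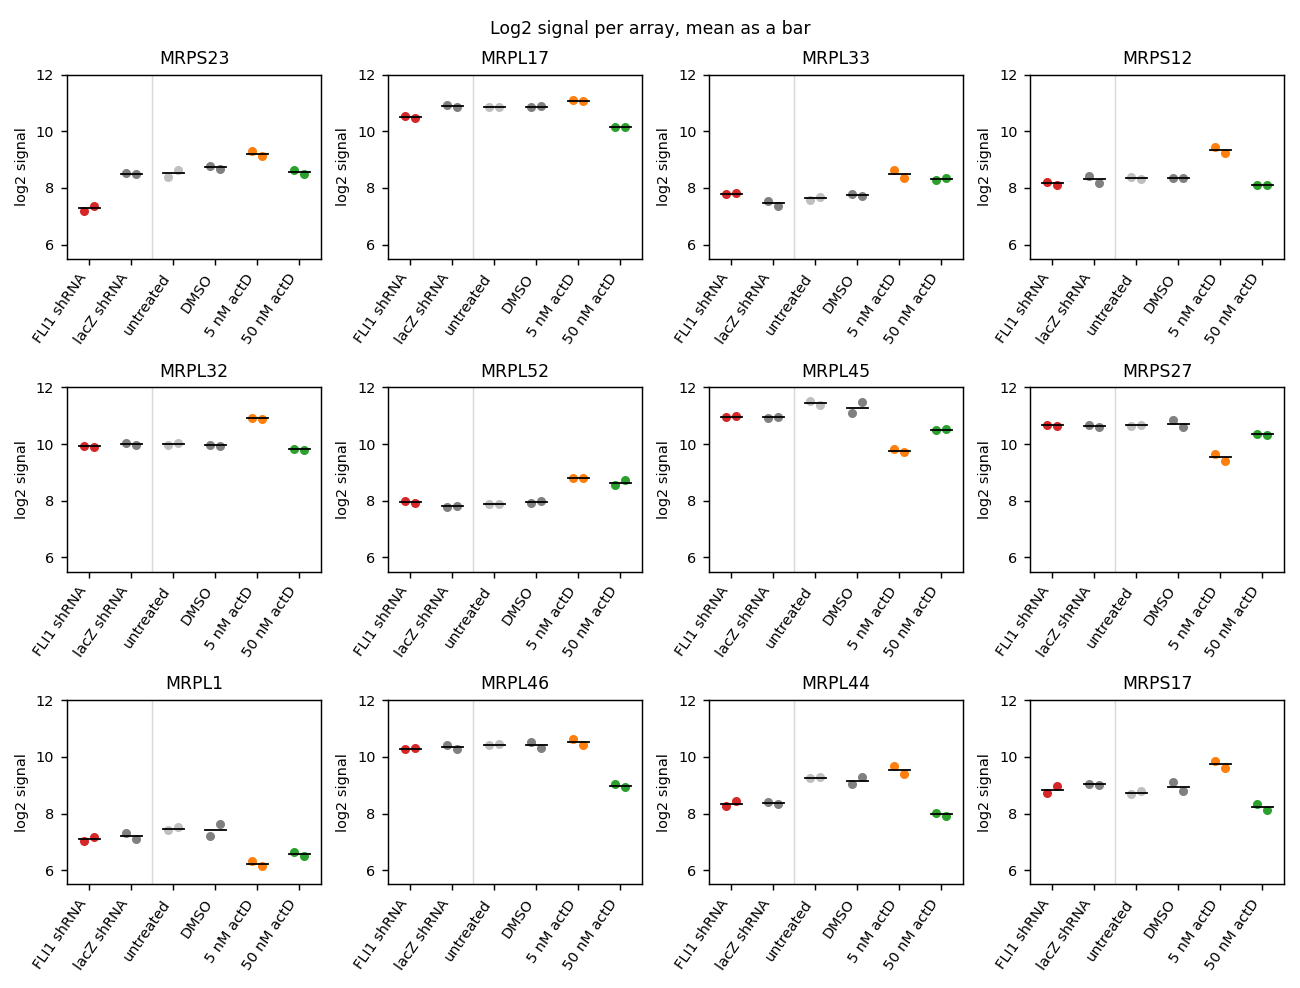
Log2 signal of 12 members in 6 groups, one point per array and a bar for the mean of 2 arrays; the vertical line separates the shRNA groups from the other groups. MRPS23 is lowest in FLI1 shRNA cells, MRPS12 and MRPL32 are highest at 5 nM actinomycin D, MRPL45 and MRPS27 are lowest at 5 nM, and MRPL46 is lowest at 50 nM.

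At 5 nM actinomycin D the family split. Of 73 coding members 27 rose (37.0%, against 30.3% of all genes) and 15 fell (20.5%, against 23% of all genes), so both shares were close to the background. Arrays did not overlap for 57 members, against 75.4% of all genes. The median change was 0.10, against 0.12 for all genes, and the direction of that median depends on the scale: with arrays centred on cytoplasmic ribosomal protein genes it was −0.26, with all genes at −0.25. The 65 cytoplasmic ribosomal protein genes encode proteins of the ribosome of the cytosol, or paralogs of these such as RPL3L and RPL10L. They moved as one list in contrast: 45 rose and 0 fell (0 also without adjustment), with a median of 0.29. Such centring removes this rise by construction.

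The rises were led by MRPS12, the counterpart of the bacterial protein at the decoding centre where streptomycin acts. MRPS12 had 9.43 and 9.23 at 5 nM, against 8.36 and 8.34 in DMSO, a change of 0.98 ± 0.10 (adjusted p = 8.7e-06). MRPL32, whose maturation by a mitochondrial inner-membrane protease is known from yeast and mouse, had 10.93 and 10.88 at 5 nM, against 9.97 and 9.93 in DMSO (change 0.95, adjusted p = 7.3e-07). Both genes were nearly doubled, and no 5 nM array overlapped a DMSO array. MRPL52, found only in mitochondria, had 8.79 and 8.81 at 5 nM, against 7.90 and 7.97 in DMSO (change 0.87). The next rises were MRPS17 (0.80), MRPL40 (0.79), MRPL50 (0.75), MRPL33 (0.73) and MRPL34 (0.72). The 8 rises named here also passed on the scale centred on cytoplasmic ribosomal protein genes, where MRPS12 and MRPL32 rose by 0.61 and 0.59. The largest rise, 1.97-fold for MRPS12, fell short of the study's fold threshold, which 2.64% of all genes passed upward.

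The 3 largest falls each exceeded the largest rise. MRPL45, a mitochondria-specific protein at the peptide exit that helps hold the ribosome to the inner membrane, had 9.82 and 9.71 at 5 nM, against 11.10 and 11.48 in DMSO. The change was −1.52 ± 0.11 (adjusted p = 8.3e-07), to 34.9% of the DMSO level. MRPL1, of the mobile stalk of the large subunit, had 6.33 and 6.14 at 5 nM, against 7.22 and 7.64 in DMSO (−1.20, adjusted p = 2.8e-05). MRPS27, a small-subunit protein of the pentatricopeptide repeat family, had 9.64 and 9.42 at 5 nM, against 10.84 and 10.60 in DMSO (−1.19, adjusted p = 1.8e-06). These 3 passed the study's thresholds, as did 7.86% of all genes. Further falls were MRPS31 (−0.98), MRPS18A (−0.82), MRPL3 (−0.49), MRPL22 (−0.49) and MRPL35 (−0.46). MRPL22 did not pass without DMSO array 1 (adjusted p = 0.12) or 5 nM array 2 (0.13). MRPS31 and its pseudogene MRPS31P5 are near copies, and how far their probes read each other is uncertain. MRPS31P5 had 7.51 and 7.16 at 5 nM, against 7.39 and 7.47 in DMSO, and did not pass. With arrays centred on cytoplasmic ribosomal protein genes, MRPS31P5 changed by −0.46 at 5 nM (adjusted p = 0.0024) and by −0.43 at 50 nM (0.0045).

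Rises and falls occurred in each class of subunit, beside 30.3% of all genes rising and 23% falling. Among large-subunit genes with bacterial counterparts 10 of 29 rose and 8 fell (median 0.09), and among mitochondria-specific large-subunit genes 10 of 21 rose and 2 fell (0.24). Among small-subunit genes with bacterial counterparts 4 of 13 rose and 2 fell (0.04), and among mitochondria-specific small-subunit genes 3 of 10 rose and 3 fell (0.01). No difference between classes was tested.

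**Figure D3:**
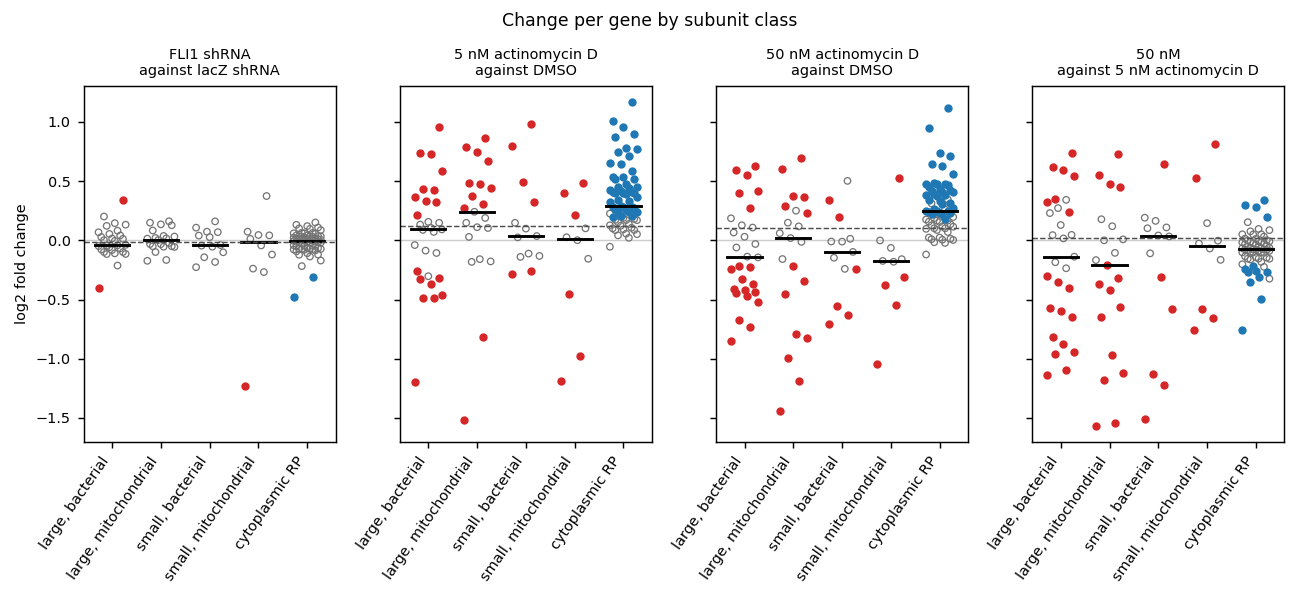
Log2 fold change (vertical axis) of each coding mitochondrial ribosomal protein gene by subunit and bacterial or mitochondria-specific class, and of 65 cytoplasmic ribosomal protein (RP) genes, in 4 comparisons. Filled points have an adjusted p under 0.05 (red, mitochondrial; blue, cytoplasmic), open points do not, bars are medians and the dashed line is the median of all genes. Mitochondrial genes spread on both sides of 0 with actinomycin D, while cytoplasmic genes cluster above it at 5 nM and 50 nM against DMSO.

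At 50 nM actinomycin D falls outnumbered rises. Of 73 coding members 15 rose (20.5%, against 25.8% of all genes) and 30 fell (41.1%, against 23.3% of all genes). The median was −0.14, against 0.10 for all genes, and it was −0.43 against −0.19 on the scale centred on cytoplasmic ribosomal protein genes. Arrays did not overlap for 59 members, against 77.4% of all genes. Cytoplasmic ribosomal protein genes had a median of 0.25, and 37 of 65 rose while 0 fell (0 also without adjustment).

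MRPL46, a mitochondria-specific large-subunit protein, had 9.03 and 8.93 at 50 nM, against 10.52 and 10.32 in DMSO. The fall was 1.44 ± 0.10 log2 units (adjusted p = 1e-06), to 36.8% of the DMSO level. MRPL44, whose fold resembles ribonuclease III, had 8.02 and 7.92 at 50 nM, against 9.03 and 9.29 in DMSO (−1.19, adjusted p = 1e-05). MRPS31 had 7.06 and 6.88 at 50 nM, against 7.99 and 8.04 in DMSO (−1.05, adjusted p = 8e-06). These 3 passed the study's thresholds, as did 5.38% of all genes. MRPL58, a peptidyl-tRNA hydrolase that frees stalled ribosomes and is also built into the large subunit, fell by 0.99. MRPL1 (−0.85), MRPL39 (−0.83), MRPL45 (−0.79) and MRPL17 (−0.73) followed.

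The rises at 50 nM were smaller. MRPL52 had 8.56 and 8.72 at 50 nM, against 7.90 and 7.97 in DMSO (0.70 ± 0.07, adjusted p = 3e-05). MRPL24 had 10.00 and 9.84 at 50 nM, against 9.44 and 9.13 in DMSO (0.63, adjusted p = 0.00045). MRPL48 (0.60), MRPL23 (0.59), MRPL33 (0.55), MRPS33 (0.53), MRPL13 (0.42) and MRPL19 (0.40) also rose. Of these, MRPL23, MRPS33, MRPL13 and MRPL19 did not pass on the scale centred on cytoplasmic ribosomal protein genes (adjusted p = 0.055, 0.22, 0.24 and 0.28). MRPS33 did not pass without DMSO array 2 or 50 nM array 1 (adjusted p = 0.13 in each case).

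The classes at 50 nM each held more falls than rises, beside 25.8% of all genes rising and 23.3% falling. Large-subunit genes with bacterial counterparts had 6 rises and 14 falls among 29 (median −0.14), and mitochondria-specific large-subunit genes 6 and 8 among 21 (0.02). Small-subunit genes had 2 rises and 4 falls among 13 with bacterial counterparts (−0.10), and 1 and 4 among the 10 others (−0.18). Of members with CCGGAAG in the promoter, 9 of 28 rose and 6 fell at 50 nM (median −0.01). Of the 38 without it 4 rose and 21 fell (−0.23). At 5 nM the same split showed little: 11 rose and 6 fell with it (median 0.11), and 13 and 7 without it (0.10). In the contrast of 50 nM with 5 nM the medians were −0.12 with it and −0.17 without it. Members with and without the YY1 letters had medians of −0.18 and −0.14 at 50 nM. No difference was tested.

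Both doses were set against the same DMSO arrays, so their changes are not independent and are given side by side. MRPS17 changed by 0.80 at 5 nM and by −0.71 at 50 nM, and MRPL34 by 0.72 and −0.41. MRPS30 changed by 0.67 and −0.45. These 3 passed in both directions also on the scale centred on cytoplasmic ribosomal protein genes. MRPL44 changed by 0.38 and −1.19, MRPS2 by 0.49 and −0.63 and MRPL17 by 0.21 and −0.73, but on the centred scale their 5 nM changes were 0.01, 0.13 and −0.15 and did not pass. MRPL33 (0.73 and 0.55) and MRPL52 (0.87 and 0.70) rose at both doses on either scale. MRPL13 (−0.32 and 0.42) and MRPL30 (−0.32 and 0.27) fell at 5 nM and rose at 50 nM, and on the centred scale their 50 nM changes were 0.13 and −0.02 and did not pass.

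The direct contrast of 50 nM with 5 nM does not use the DMSO arrays. In it 14 coding members rose (19.2%, against 21.6% of all genes) and 31 fell (42.5%, against 23.1% of all genes), with a median of −0.11 against 0.02 for all genes. Arrays did not overlap for 62 members, against 66% of all genes. Past the study's thresholds 9 members fell, against 6.65% of all genes, while the largest rise was 1.76-fold and 4.33% of all genes passed upward. MRPL44 had 8.02 and 7.92 at 50 nM, against 9.67 and 9.40 at 5 nM (−1.56 ± 0.11, adjusted p = 6.5e-07). MRPL46 had 9.03 and 8.93 at 50 nM, against 10.63 and 10.42 at 5 nM (−1.54, adjusted p = 2.8e-07). MRPS17, a small-subunit protein with a bacterial counterpart, had 8.34 and 8.13 at 50 nM, against 9.87 and 9.62 at 5 nM (−1.51, adjusted p = 3e-06). The 50 nM levels of these genes were 33.8%, 34.3% and 35.2% of the 5 nM levels, with no overlap of arrays. MRPS12 (−1.22), MRPL58 (−1.18), MRPL34 (−1.14), MRPS2 (−1.12), MRPS30 (−1.12) and MRPL32 (−1.10) complete the 9. MRPS30 is part of the large subunit despite its symbol.

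In the opposite direction, MRPS27, MRPL13, MRPL45, MRPL22 and MRPL30 had fallen at 5 nM, whereas MRPS18C, MRPL42 and MRPL24 had not passed there. Both comparisons use the same 5 nM arrays, so a fall at 5 nM and a rise here are not independent. MRPS27 had 10.35 and 10.34 at 50 nM, against 9.64 and 9.42 at 5 nM (0.81, adjusted p = 3.4e-05). MRPL13 (0.74), MRPL45 (0.73), MRPS18C (0.64), MRPL22 (0.62), MRPL30 (0.59), MRPL42 (0.55) and MRPL24 (0.54) also rose. The MRPS18C rise (adjusted p = 0.034) did not pass without 5 nM array 2 (change 0.35, adjusted p = 0.26), without 50 nM array 1 (0.1) or without 50 nM array 2 (0.099). By dose, MRPL45 stood at 11.10 and 11.48 in DMSO, 9.82 and 9.71 at 5 nM and 10.48 and 10.52 at 50 nM.

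MRPS23 took a different course with the drug than with the hairpin. It had 9.29 and 9.12 at 5 nM, against 8.79 and 8.66 in DMSO, a rise of 0.48 ± 0.11 (adjusted p = 0.0026). At 50 nM it had 8.61 and 8.48, a change of −0.17 that did not pass (adjusted p = 0.19). The 50 nM level was lower than the 5 nM level by 0.66 (adjusted p = 0.00034). Both calls depend on the scale: centred on cytoplasmic ribosomal protein genes, the 5 nM change was 0.12 and did not pass (adjusted p = 0.3), and the 50 nM change was −0.46 and passed (adjusted p = 0.002).

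The 3 MRPS18 paralogs, related to bacterial S18, had separate courses. MRPS18A, now placed in the large subunit, had 10.85 and 10.79 in DMSO, 10.13 and 9.87 at 5 nM and 10.53 and 10.43 at 50 nM, with changes against DMSO of −0.82 and −0.34. MRPS18B had 10.16 and 9.96 in DMSO, 10.19 and 9.98 at 5 nM and 10.06 and 10.06 at 50 nM, and did not pass in any comparison, although it fell by 0.34 at 5 nM (adjusted p = 0.0034) and by 0.29 at 50 nM (0.011) on the scale centred on cytoplasmic ribosomal protein genes. MRPS18C, the paralog in the position of the bacterial protein, had 6.23 and 6.06 in DMSO, 6.30 and 5.71 at 5 nM and 6.65 and 6.64 at 50 nM. Neither MRPS18C change against DMSO passed (adjusted p = 0.61 and 0.08), and its arrays are the least repeatable of the family.

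Gene span, the length from first to last annotated base in RefSeq, was compared with the changes because actinomycin D binds the DNA that is transcribed. Mitochondrial ribosomal protein genes are compact, with a median span of 8.62 kb (0.677 to 101 kb) against 27.3 kb for coding genes. At 5 nM the rank correlation of span with change was −0.45 over the 73 coding members, −0.52 over 16897 coding genes and −0.71 over the 7449 of these with a mean signal over 8, which is nearer to the members' level. At 50 nM it was −0.10, −0.29 and −0.28 over these sets. In the contrast of 50 nM with 5 nM it was 0.35, 0.34 and 0.52, and after FLI1 shRNA 0.02, 0.13 and 0.07. The genes of a list share arrays and are not independent, so these are descriptions.

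The 25 shortest members, up to 5.41 kb, had 12 rises and 3 falls at 5 nM, and of coding genes of these spans 47.7% rose and 3.23% fell. Of the 24 of medium span 12 rose and 12 did not pass, against 48.9% of coding genes rising and 4.74% falling. The 24 longest (14.4 to 101 kb) had 3 rises and 12 falls, against 26.9% and 26.2% of coding genes. Medians were 0.21, 0.20 and −0.23 from short to long. Coding genes of the same spans had medians of 0.27, 0.26 and 0.08. These coding genes were taken at any signal level, whereas members are brighter than most genes (median 9.68, against 7.45 for all genes). How far this difference in level enters the comparison was not tested. MRPS27 and MRPL1 are the longest members, and MRPL45 spans more than the median coding member. At 50 nM the medians from short to long were −0.06, −0.12 and −0.20, while coding genes of the same spans had 0.23, 0.18 and 0.04. Among members of medium span 11 of 24 fell (15.8% of coding genes of that span fell) and 3 rose (34.7%).

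Many members share a start region with a gene on the other strand. A neighbour starting within 1000 bp in the opposite direction was found for 17 of 66 members (25.8%) and for 10.3% of 15843 coding genes. MRPL46 and MRPS11 face each other over 320 bp, and at 50 nM MRPL46 changed by −1.44 and MRPS11, a small-subunit protein, by 0.01 (−0.27 on the centred scale, adjusted p = 0.0064). In the contrast of 50 nM with 5 nM they changed by −1.54 and −0.31. MRPS12 rose by 0.98 at 5 nM, whereas SARS2, the mitochondrial seryl-tRNA synthetase 181 bp away, changed by −0.13 (adjusted p = 0.16). MRPL40 rose by 0.79 at 5 nM and its neighbour HIRA, a histone chaperone, fell by 1.01. MRPS27 and PTCD2 fell together at 5 nM (−1.19 and −0.75), and MRPL49 and the cytoplasmic ribosomal gene FAU rose together (0.44 and 0.74). On the centred scale the MRPL49 change at 5 nM was 0.07 and did not pass (adjusted p = 0.42). Such pairs were thus seen both with shared and with opposite direction; differences within pairs were not tested.

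The rest of the mitochondrial translation machinery was read from lists of its own. The lists here and in the following paragraphs were not read on the scale centred on cytoplasmic ribosomal protein genes. Those genes averaged 11.45 and 11.37 at 5 nM, against 11.06 and 11.02 in DMSO, and centring removes this rise. The direction of small rises at 5 nM therefore depends on the scale. Among mitoribosomal proteins under other symbols, 4 were measured. At 5 nM GADD45GIP1 (0.49) and CHCHD1 (0.36) rose and PTCD3 (−0.61) and DAP3 (−0.37) fell. Of 15 translation factors 2 rose and 8 fell at 5 nM (against 30.3% and 23% of all genes), including the initiation factor MTIF2 (−1.41), the release factor MTRF1 (−0.61) and LRPPRC, which stabilizes mitochondrial mRNAs. MTRF1L, a second release factor, rose by 0.75. At 50 nM 2 rose and 6 fell (against 25.8% and 23.3% of all genes), with MTRFR, a rescue factor, at −0.98 and TACO1, a translational activator, at −0.93. Of 19 genes for mitochondrial aminoacyl-tRNA synthetases and the subunits of the Gln-tRNA amidotransferase, 4 rose and 10 fell at 5 nM (LARS2 −1.39, FARS2 −1.35) and 3 rose and 10 fell at 50 nM (MARS2 −0.98), beside the same shares of all genes.

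On the scale as deposited, assembly and rRNA modification genes mostly rose at 5 nM and mostly fell at 50 nM where they passed. Of 26, 13 rose and 5 fell at 5 nM (median 0.15, against 30.3% and 23% of all genes), and 2 rose and 15 fell at 50 nM (median −0.37, against 25.8% and 23.3%). NOA1, a GTPase of small-subunit assembly, had 9.27 and 9.33 in DMSO, 9.95 and 10.04 at 5 nM and 7.96 and 7.75 at 50 nM. It rose by 0.69 at 5 nM and fell by 1.45 at 50 nM. MALSU1, a large-subunit assembly factor, had 8.80 and 8.43 at 50 nM, against 10.39 and 10.29 in DMSO (−1.72). TFB1M, the methyltransferase of the small rRNA, fell by 0.69 at 5 nM and by 1.53 at 50 nM. After FLI1 shRNA 4 of 26 fell, against 9.28% of all genes, led by DDX28 (−0.33), MRM2 (−0.32) and RBFA (−0.31).

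Genes that transcribe and process mitochondrial RNA changed in both directions. PRORP, the nuclease that cuts the 5′ ends of mitochondrial tRNAs, fell by 1.71 at 5 nM, and TFAM, which packages mitochondrial DNA and activates its transcription, rose by 0.86. TRMT10C, a partner of PRORP, fell by 1.40 at 50 nM. After FLI1 shRNA TFB2M (−0.54) and TFAM (−0.30) fell and HSD17B10 rose by 0.75.

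Of 8 factors with known sites in mitoribosomal promoters or known to coactivate there, 4 fell after FLI1 shRNA, against 9.28% of all genes: MYC (−0.64), PPARGC1B (−0.40), NRF1 (−0.36) and PPRC1 (−0.27). NRF1 had 8.05 and 7.95 in DMSO, 6.93 and 6.94 at 5 nM and 6.84 and 6.64 at 50 nM, and fell by 1.06 at 5 nM and by 1.25 at 50 nM. PPRC1 and MYC fell by 1.82 and 1.52 at 50 nM but rose by 0.31 and 0.33 at 5 nM. These 5 nM rises are smaller than the mean rise of cytoplasmic ribosomal protein genes, which centring removes. Their direction thus depends on the scale. GABPA rose by 0.72 and 0.42, while its partner GABPB1 fell by 0.70 at 5 nM and by 1.20 at 50 nM. Genes of mitochondrial DNA, including the rRNAs of this ribosome, were not analysed here.

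The control groups were compared with each other. With DMSO against untreated cells 0 of 74 members passed with limma (4 had an unadjusted p under 0.05, and 0 passed under any alternative setting), against 0.00543% of all genes higher and 0% lower, with a median of 0.02. With lacZ shRNA against untreated cells 1 member rose and 6 fell, against 0.815% and 2.26% of all genes, with a median of −0.08, and 20 of 74 had an unadjusted p under 0.05. MRPL44 had 8.42 and 8.35 in lacZ shRNA cells, against 9.25 and 9.30 in untreated cells (−0.89 ± 0.11, adjusted p = 0.004). MRPL28 (−0.67), MRPL4 (−0.54), MRPL45 (−0.52), MRPL41 (−0.44) and MRPS2 (−0.39) fell and MRPL24 rose by 0.48. Without one array at a time between 0 and 2 members fell and 0 rose. Infection, puromycin and time in culture cannot be told apart in this comparison.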

How the data were processed

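Expression in A673 cells was measured on Gene 1.0 ST arrays (Affymetrix). The log2 signals were made by the authors with background correction, RMA normalization and log2 conversion in affy (version not given in the sources used here), and were used as deposited. RMA equalizes the distribution of signals over arrays, so levels are relative. Arrays were grouped by their titles, and 0 value columns had no sample. Of 32321 probe sets, 19158 carry 1 symbol, 1388 several and 11775 none in the platform annotation. The brightest single-symbol probe set stood for each of 18404 genes, a choice that 637 genes needed, MRPL36 among them.

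Group means over all 12 arrays (6 residual degrees of freedom, prior 4.45) were compared with limma 3.58.1 in R 4.3.3, with Benjamini-Hochberg adjustment within each of 6 comparisons over all genes. On simulated data for FLI1 against lacZ shRNA with 18404 genes, 76.2% of 80 genes changed by 0.5 log2 units were recovered. Of 80 genes changed by 1 and 40 changed by 2, 100% were recovered. The simulated noise was independent, with the same spread in every group, and far fewer genes changed than in the real comparison. These shares need not hold for the real arrays. With 2 arrays in each group the precision is low.

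Members and lists were chosen with earlier results of these data known. The text names, per main comparison, up to 8 members with the largest rise and fall among those past an adjusted p of 0.05 whose arrays do not overlap, the 3 brightest and 3 dimmest, the MRPS18 paralogs and up to 3 genes a direction of each further list. The neighbours, the genes with printed sequence, MRPS33 after FLI1 shRNA and the genes set side by side at both doses were chosen after values were seen. The genes printed for their response to actinomycin D all hold the ETS or YY1 letters. Y-linked genes were left out of the 65 cytoplasmic ribosomal protein genes, and paralogs such as RPL3L, RPL10L and RPS27L were kept. Spans, promoters and neighbours come from RefSeq GRCh38.p14, with the first listed start of a gene, and served as properties of genes; the deposited table holds no coordinates. MRPL51, MRPS6, MRPS24 and MRPS28 were not analysed here because their probe sets carry several symbols. Replicate numbers were not taken as pairs: the labels do not say that a number marks a shared batch, and the gaps between replicates correlated by −0.45 to 0.17 over the comparisons.

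Alternatives were quantile normalization applied again, centring on cytoplasmic ribosomal protein genes, leaving out dim genes (below the 40th percentile), the mean over probe sets, the 4 arrays of a comparison alone, eBayes with trend and robust estimation, the replicate block and each array left out.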

Additional observations from a re-analysis of the deposited data

How the results depend on the processing

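Counts here are over all 74 members. None of the 51 changes named by rule changed sign under the alternatives run, but for most alternatives this was fixed in advance. The 51 were chosen for arrays that do not overlap, so leaving 1 array out cannot reverse a sign. Other fits to the same values return the same change. Only quantile normalization and centring could have reversed one of the 51. Values outside these 51 did change sign when arrays were centred on cytoplasmic ribosomal protein genes. Among them were MRPL17 (−0.15) and MRPS18B (−0.34) at 5 nM, and MRPL30 (−0.02), MRPL40 (−0.06) and MRPS11 (−0.27) at 50 nM. Applied again, quantile normalization gave 6 falls after FLI1 shRNA and median changes of −0.05 after FLI1 shRNA, 0.18 at 5 nM, −0.02 at 50 nM and −0.05 for lacZ shRNA against untreated cells, and 2 of the 51 changes no longer passed, MRPL22 at 5 nM (adjusted p = 0.055) and MRPS18C in 50 nM against 5 nM (0.051). Centring on cytoplasmic ribosomal protein genes gave 10 rises, 40 falls and a median of −0.26 at 5 nM (all genes −0.25, with 1636 rises and 8422 falls), 4 rises, 51 falls and −0.43 at 50 nM (all genes −0.19, with 821 and 7496), −0.03 for 50 nM against 5 nM (all genes 0.10) and −0.03 for DMSO against untreated. Leaving out dim genes gave 4 falls after FLI1 shRNA and 10 for lacZ shRNA against untreated, and eBayes with trend and robust estimation 5 and 11. The 4 arrays alone gave 0 rises and 2 falls for lacZ shRNA against untreated. The mean over probe sets moved no count by over 1.5 times.

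With the replicate block, FLI1 shRNA had 1 rise and 2 falls, 5 nM 27 and 15, and 50 nM 14 and 29, and the call of 51 of 51 named changes was kept. A crossed replicate block on the 4 arrays, chosen after seeing the data because the numbers correlated negatively, gave 2 rises and 3 falls after FLI1 shRNA (all genes 3174 and 2400, against 2497 and 1582 unblocked), 2 and 11 for lacZ shRNA against untreated (all genes 463 and 862, against 51 and 94), and 0 and 0 for DMSO against untreated.

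With one array left out, FLI1 shRNA had 0 to 1 rises, 2 falls and medians of −0.04 to 0.01; 5 nM 23 to 29 rises, 12 to 15 falls and 0.08 to 0.15; 50 nM 11 to 14, 23 to 26 and −0.15 to −0.11; 50 nM against 5 nM 10 to 15, 30 to 33 and −0.16 to −0.04. For lacZ shRNA against untreated these were 0 rises, 0 to 2 falls and −0.11 to −0.04, and for DMSO against untreated 0, 0 and 0.01 to 0.05. A group left with 1 array was assumed to vary like the others. The cause of these shifts was not tested, and MRPS18C, MRPL13 and MRPL54, dimmest of all members, are the least resolved.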
